A study of Mus musculus with 61 samples.

Results

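The RNA of mouse embryos labelled as Klf17 paternal knockout (pKO) was compared with that of wild-type control embryos (ctrl) over all genes of the deposited table. The comparison took 5 of the 61 samples of the series, 2 pKO libraries and 3 controls, chosen by their genotype labels alone. The table lists 22911 genes, of which 16694 had enough reads to be tested. Embryos came from in vitro fertilisation and were cultured with 2 mM 4-thiouridine (4SU), a uridine analog taken up into newly made RNA, for 6 h before lysis, alkylation and poly(A) sequencing (SLAM-seq). The genotype embryos were collected at a stage the submitters call M2C. Libraries labelled Klf17 KO (3) and Klf17 maternal KO (mKO, 3) were made alongside, also with 4SU. How the allele was disrupted, how the parents were crossed, how many embryos made each genotype library, and whether replicates came from separate matings are not given in the labels, so p-values measure only the spread between these libraries. The sources used here do not say if reads without a T-to-C conversion, the mark of labelled RNA, were counted too. A level may then be older RNA as well as RNA made during the labelling.

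Klf17 encodes a Kruppel-like zinc finger transcription factor that is abundant in mouse oocytes and early cleavage embryos. Kruppel-like factors bind GC-rich and CACCC-type sequences in promoters and enhancers. In the mouse, the major wave of embryonic transcription begins during the 2-cell stage, when transcripts inherited from the egg are cleared and genes for ribosomes, splicing and protein turnover are switched on. As the term is commonly used, a paternal knockout embryo receives the disrupted allele through the sperm, so the egg's own store of Klf17 message and the maternal allele are those of a wild-type egg.

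Klf17 reads were not below the control level in either pKO library. Its level was 812 and 1015 CPM (read counts scaled to a common library size with TMM factors) in the 2 pKO libraries and 596, 805 and 746 CPM in the 3 controls. Both pKO values lay above all 3 controls. The log2 fold change of pKO over control was 0.35 (SE 0.33, 95% interval -0.34 to 1.05, unadjusted p = 0.302, adjusted p = 1, edgeR). The libraries labelled KO held 673, 603 and 728 CPM and those labelled mKO 359, 845 and 794 CPM, so reads of Klf17 were present under every genotype label. Counts per gene do not show which part of the gene the reads cover, so they check neither the pKO label nor the others.

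The gene lies at chr4:117756659-117765666 on the minus strand of GRCm38.p6. Among the 40 nearest annotated genes (20 on each side), 38 were tested and none reached an unadjusted p below 0.05 in pKO against control; their median log2 fold change was 0.12. The 250 bases upstream of the RefSeq start of Klf17 (GRCm38.p6, chr4:117765667-117765916, minus strand) are shown because they are the promoter of the targeted gene. Capitals mark matches to CCNCNCCC on either strand, a motif form of the CACCC type.
Klf17: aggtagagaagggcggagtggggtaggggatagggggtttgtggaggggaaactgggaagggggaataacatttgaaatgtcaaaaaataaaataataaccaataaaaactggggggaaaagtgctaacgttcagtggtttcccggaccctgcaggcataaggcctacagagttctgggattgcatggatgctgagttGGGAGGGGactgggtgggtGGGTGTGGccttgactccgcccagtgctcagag
The stretch holds 2 matches.

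**Figure D1:**
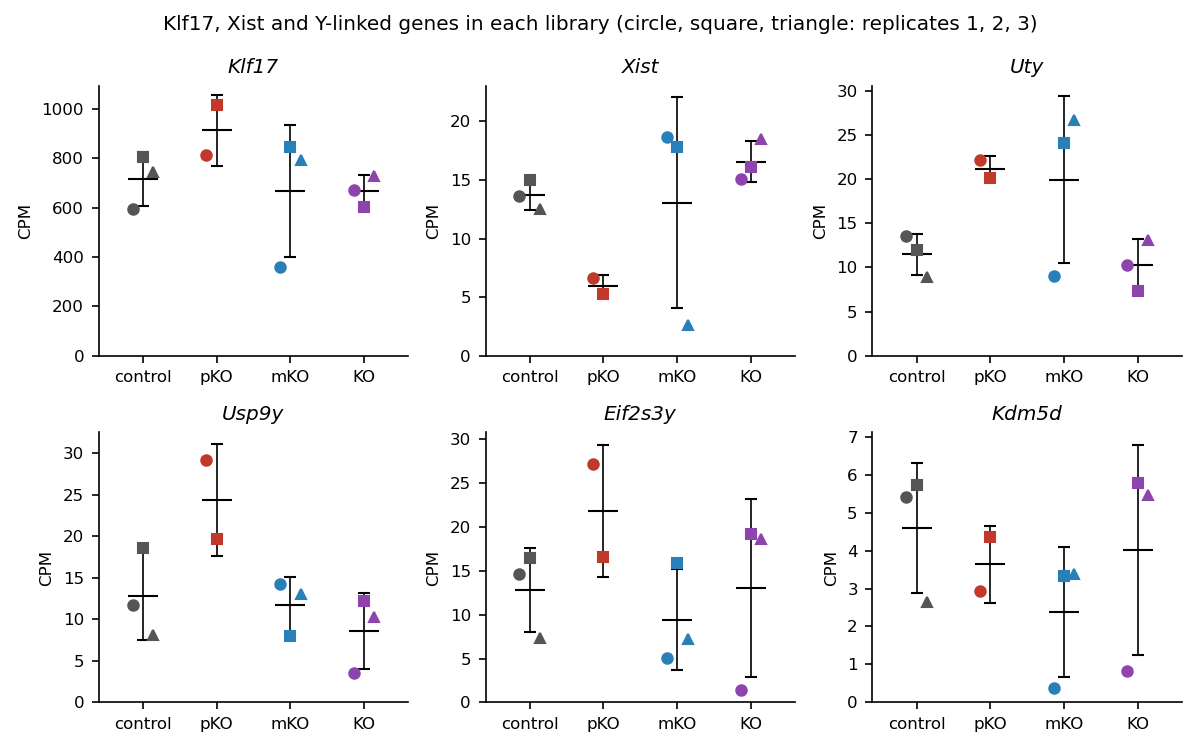
Levels in CPM of Klf17, Xist and 4 Y-linked genes in each library of the 4 genotype groups (circle, square and triangle are replicates 1, 2 and 3; black lines are means with SD, n = 2 for pKO and 3 for the others). Klf17 was at 812 and 1015 CPM in pKO, Xist was below every control in both pKO libraries, and Uty, Usp9y and Eif2s3y were above every control.

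The pKO libraries were the deepest of the 11, with 23018252 and 21821878 reads against 17858094 to 19876670 in the controls. The 2 pKO libraries differed more from each other than the controls did. Across the 6627 genes averaging 20 CPM or more, 14.3% were at least 2-fold apart between pKO 1 and pKO 2, against 0.573% to 4.23% between pairs of controls. Between a pKO library and a control the share was 3.23% to 6.16% for pKO 1 and 4.51% to 14.7% for pKO 2. Mitochondrially encoded reads made up 5.63% of pKO 1 and 3.73% of pKO 2, against 3.23% to 4.18% in the controls. By rank correlation across genes, both pKO libraries were closest to the 30-36 h window after insemination among the 10 stages of the same series (rho 0.953 and 0.943), as were controls 2 and 3 (0.959 and 0.955). Control 1 was slightly closer to the 24-30 h window (0.943 against 0.939). Of 20 cumulus and granulosa cell markers, 19 are in the table, and their summed level was 17.5 and 23.9 CPM in pKO and 22.0 to 66.2 CPM in the controls. Fshr was at 0 in all libraries, and the steroid enzymes Hsd3b1 and Cyp11a1 reached 34.9 and 13.6 CPM in control 2 while the other controls and both pKO libraries held at most 0.228 CPM of either. Of the 12 markers tested, 3 (Cyp11a1, Lhcgr and Foxl2) had an unadjusted p below 0.05, all lower in pKO, and the median was -0.51. Over all genes, 2.13% were lower and 0.719% higher at that mark. These 3 rest on few reads or few libraries. Foxl2 had 5, 4 and 1 reads in the controls, Lhcgr 13, 29 and 0, and Cyp11a1 4, 259 and 0. In pKO, Foxl2 and Lhcgr had 0 reads, and Cyp11a1 had 3 and 0. Of the sperm markers, 14 of 15 are in the table (summed 174 and 270 CPM in pKO, 181 to 252 CPM in controls), and the protamine and transition protein genes Prm1, Prm2, Tnp1 and Tnp2 each stayed below 1 CPM in the pKO and control libraries. The part of these differences in the results was not tested.

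No gene passed the test between pKO and control. With edgeR's quasi-likelihood test and Benjamini-Hochberg adjustment, 0 of 16694 genes (0%) had an adjusted p below 0.05, and the smallest adjusted p was 1. At an unadjusted p below 0.05, 476 genes (2.85%) were listed, 120 higher in pKO (0.719%) and 356 lower (2.13%). That mark alone would list a share of about 0.05 of the genes without any difference, so 2.85% is no excess. DESeq2 called 2 genes, Sptlc3 and Zfp37. In the same fit, KO against control gave 1358 calls (8.13%) and mKO against control gave 0 calls with 1243 genes (7.45%) at an unadjusted p below 0.05. These comparisons share the 3 controls. For 3295 genes (19.7%) the pKO libraries did not overlap the controls, 1575 of them higher in pKO and 1720 lower. With groups of 2 and 3 libraries, many genes would separate fully without any difference between the groups. A lack of overlap is therefore no call.

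**Figure D2:**
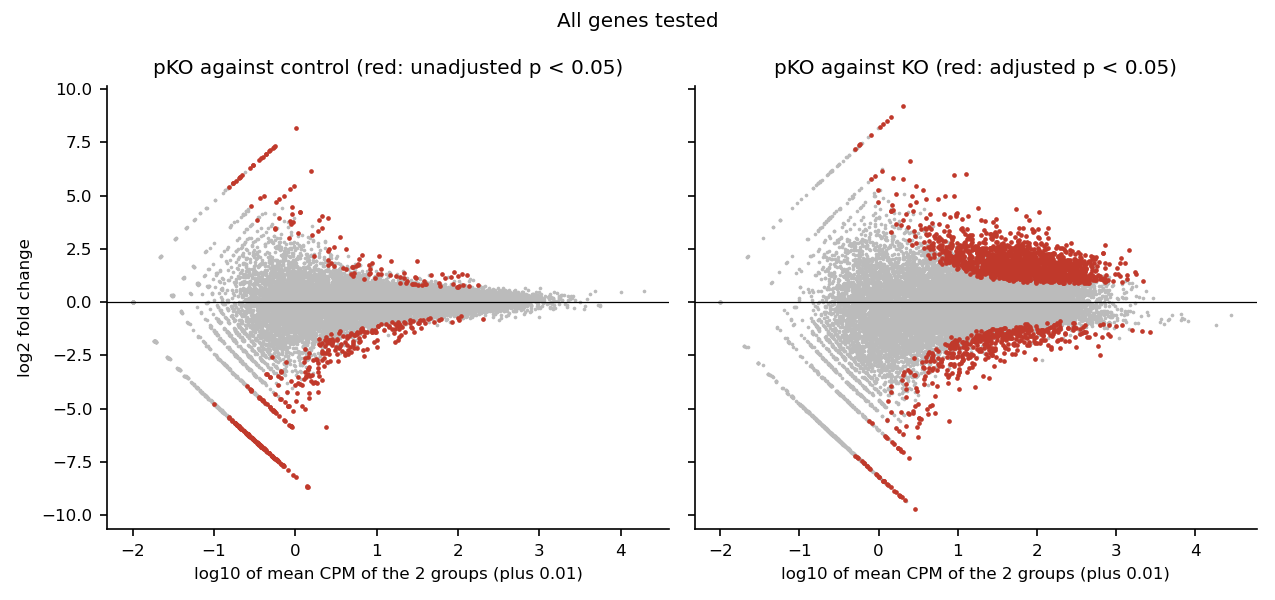
Log2 fold change of every gene tested against the log10 of its mean CPM, for pKO against control (left, red at unadjusted p below 0.05) and pKO against KO (right, red at adjusted p below 0.05). Left, 476 genes are red and none passed adjustment; right, 2087 genes passed, 1615 of them higher in pKO.

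The width of the intervals sets what this fit could show. The fit held all 11 genotype libraries, so the intervals rest also on the spread within the KO and mKO groups. With only the pKO and control libraries, 630 genes had an unadjusted p below 0.05 by edgeR, against 476 in the main fit. Intervals were not computed in that smaller fit. The median half-width of the 95% interval of a log2 fold change was 1.23 over all genes with an interval. It was 0.70 for the 2338 genes averaging at least 100 CPM and 0.90 for the 6093 genes between 10 and 100 CPM. Among genes of at least 100 CPM, 65.7% had an interval that excluded a 2-fold difference in either direction and 99.8% excluded a 4-fold difference. Over all levels the shares were 19.1% and 59.0%. Below 1 CPM no gene's interval excluded even a 4-fold difference.

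Over all genes tested, 1575 were higher and 1720 lower in pKO without overlap between groups (19.7% together). Genes named next also averaged at least 20 CPM in their higher group and had an ordinary gene symbol (not a Gm, Rik, clone, -ps, mt- or Ensembl name). These conditions left 737 higher and 517 lower, counts that are no result. Among them, the 6 with the smallest unadjusted p on the higher side were Zfp622, Nt5c3, Cactin, Rrs1, D1Pas1 and Spag7. Zfp622, a maturation factor of the large ribosomal subunit, measured 113 and 247 CPM in pKO and 82.7, 66.2 and 74.1 CPM in controls (log2 fold change 1.28, SE 0.38, unadjusted p = 0.00330, adjusted p = 1 by edgeR). The 2 pKO libraries were more than 2-fold apart but both lay above every control. Rrs1, a regulator of ribosome assembly, measured 55.3 and 133 CPM against 35.1, 40.3 and 51.9 CPM (log2 fold change 1.15, SE 0.44), with pKO 1 close to control 3. Cactin, a protein associated with the spliceosome, was at 26.7 and 33.2 CPM in pKO and at 13.7, 14.6 and 12.4 CPM in controls (log2 fold change 1.14, SE 0.41). Nt5c3, a pyrimidine 5'-nucleotidase, was at 22.98 and 17.8 CPM in pKO and at 7.70, 7.72 and 9.46 CPM in controls (log2 fold change 1.30, SE 0.43); the KO libraries, at 20.9, 36.1 and 15.3 CPM, were also above the controls. Cactin and Nt5c3 therefore separated the groups with less spread within pKO than Zfp622 or Rrs1 did. Spag7, a sperm-associated antigen gene, was at 52.7 and 50.4 CPM in pKO and at 32.7, 24.0 and 28.8 CPM in controls (log2 fold change 0.86, SE 0.34). D1Pas1, a DEAD-box RNA helicase gene, was at 120 and 103 CPM in pKO against 50.4, 69.5 and 63.0 CPM (log2 fold change 0.87, SE 0.34). It closely resembles Ddx3x and Ddx3y, so its reads may be shared with them. The adjusted p was 1 for all 6 genes.

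On the lower side, 2 of the 6 genes with the smallest unadjusted p under the same conditions lie on the X chromosome. Samd10, a gene for a sterile alpha motif protein, had the smallest unadjusted p of the 6 (0.00102, adjusted p = 1, edgeR). It measured 10.5 and 14.1 CPM in pKO and 33.9, 32.6 and 31.1 CPM in controls, a log2 fold change of -1.40 (SE 0.36), and neither group had much spread. The KO libraries held more Samd10 than the controls, at 58.0, 68.3 and 64.0 CPM. Amer1, an X-linked regulator of Wnt signalling, was at 11.8 and 6.12 CPM in pKO and at 30.8, 27.9 and 25.6 CPM in controls (log2 fold change -1.65, SE 0.44). Xlr3c, an X-linked member of a family of near-identical copies, was at 10.9 and 9.23 CPM in pKO and at 49.0, 14.5 and 24.3 CPM in controls (log2 fold change -1.54, SE 0.49), and its reads may be split among the copies. Control 1 alone held the high Xlr3c value, and controls 2 and 3 were nearer to pKO. Mon1b, part of the complex that activates Rab7 on late endosomes, was at 9.22 and 8.95 CPM against 22.7, 23.2 and 19.2 CPM (log2 fold change -1.26, SE 0.44). Abr was at 26.1 and 17.2 CPM against 45.7, 40.6 and 41.2 CPM (log2 fold change -0.97, SE 0.36). Zfp957, a zinc finger gene, was at 14.2 and 5.42 CPM against 24.9, 19.4 and 27.05 CPM (log2 fold change -1.27, SE 0.47). The adjusted p was 1 for all 6.

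In GRCm38.p6 the annotation places Zfp622 at chr15:25984366-25998482, Rrs1 at chr1:9545408-9547455, Cactin at chr10:81321103-81326251, Nt5c3 at chr6:56882400-56924008, Spag7 at chr11:70663769-70669416 and D1Pas1 at chr1:186967416-186970627. It places Samd10 at chr2:181595215-181599434, Amer1 at chrX:95420313-95444840, Xlr3c at chrX:73254538-73265576, Mon1b at chr8:113635586-113645192, Abr at chr11:76416732-76623324 and Zfp957 at chr14:79212355-79247367.

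The window libraries, which share no sample with the genotype set, place these genes in development. Samd10 averaged 96.3 ± 22.3 CPM (SD, n = 3) at 18-24 h, 24.8 ± 2.55 CPM at 24-30 h and 3.16 ± 1.62 CPM at 30-36 h. Zfp957 went from 450 ± 11.3 CPM in MII oocytes to 41.1 ± 8.20 CPM at 24-30 h and 16.1 ± 2.01 CPM at 30-36 h. Abr was at 30.4 ± 4.95 CPM at 24-30 h and 14.3 ± 0.922 CPM at 30-36 h. Amer1 and Xlr3c, too, had lower means at 30-36 h than at 24-30 h, while Mon1b was at 11.03 ± 2.49 CPM and 10.6 ± 5.07 CPM. The steps from 24-30 h to 30-36 h passed edgeR's test for the 5 genes other than Mon1b. Among the genes higher in pKO, Zfp622 was at 56.4 ± 6.97 CPM at 24-30 h and 85.4 ± 16.3 CPM at 30-36 h, and that step did not pass (adjusted p = 0.0641). Rrs1 (34.0 ± 2.21 to 59.8 ± 10.3 CPM, adjusted p = 0.0174) and Cactin (7.53 ± 0.624 to 18.2 ± 2.30 CPM, adjusted p = 0.000426) rose over that step. The other 3 did not pass: Nt5c3 was at 8.81 ± 2.23 and 13.7 ± 6.44 CPM (adjusted p = 0.0600), Spag7 at 25.6 ± 8.24 and 32.4 ± 4.41 CPM (adjusted p = 0.0546) and D1Pas1 at 60.7 ± 10.4 and 51.0 ± 10.6 CPM (adjusted p = 0.747).

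**Figure D3:**
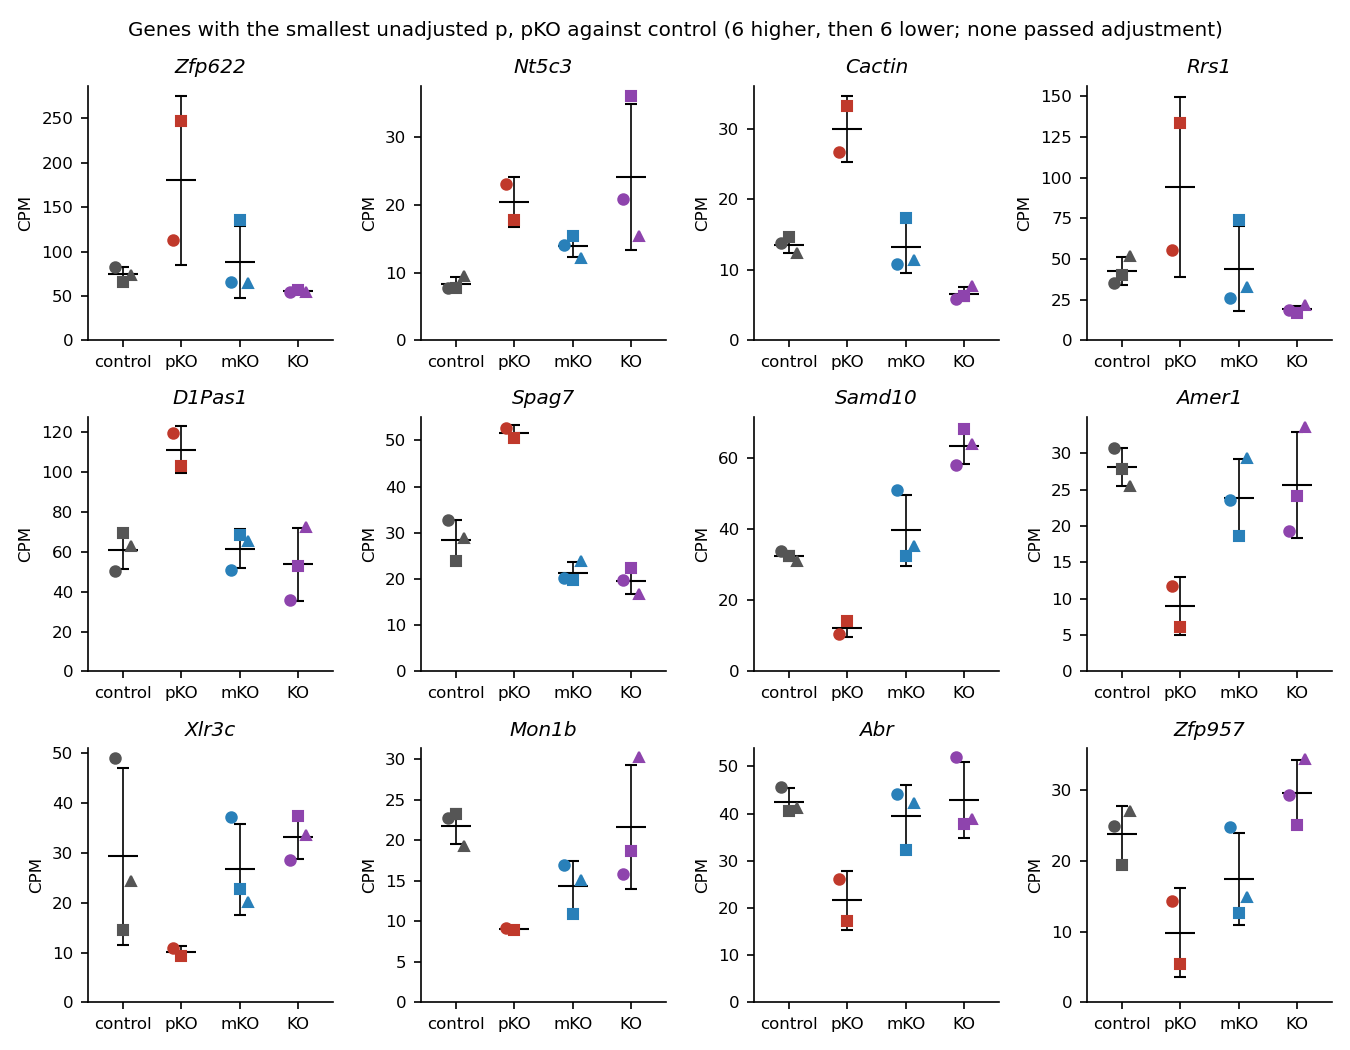
Levels in CPM of the 6 genes higher and 6 genes lower in pKO than in control with the smallest unadjusted p among those of at least 20 CPM with an ordinary gene symbol and without overlap, in each library (symbols as in the plot of Klf17; black lines are means with SD). The pKO points do not overlap the controls, a condition of the choice; pKO 2 lies far above pKO 1 for Zfp622 and Rrs1.

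A few low genes were at 0 in 1 group. With a count of 0 in both pKO libraries and at least 0.5 CPM in each control, 12 genes were found, and 2 showed the opposite. Sptlc3, a subunit of serine palmitoyltransferase, had 54, 64 and 41 reads in the controls. Their mean was 19.8-fold above a floor set at 3 reads per pKO library. That ratio is no lower bound, because replicates differed by more than counting noise and the genes were chosen for their 0 reads. Sptlc3 also held 35, 5 and 0 reads in the mKO libraries and 107, 89 and 55 reads in KO. Zfp37, a zinc finger gene, had 60, 13 and 85 control reads (a mean 19.5-fold above the same floor) and reads in every KO and mKO library. DESeq2 called these 2 genes (adjusted p = 0.0413 for each). Pik3c2g, a lipid kinase gene, had 23 and 62 reads in pKO and 0 in all controls, with 100, 23 and 15 reads in KO. Without the filter on low counts, edgeR called Sptlc3, Zfp37, Pik3c2g and Hsd3b1, the last because of 665 reads in control 2 beside 0 in the other controls and in pKO. These 4 genes were named after their values were seen.

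The X chromosome held the largest share of genes at an unadjusted p below 0.05 among the chromosomes. Of 626 X-linked genes tested, 35 were lower and 1 was higher at an unadjusted p below 0.05, together 5.75% against 2.85% of all genes. The X share is thus near the share of 0.05 that this mark would list without any difference. Their median log2 fold change was -0.20, against 0.03 over all genes tested, and the medians of the 19 autosomes lay between -0.03 and 0.12. Leaving out pKO 1 gave 62 lower and 4 higher X-linked genes with a median of -0.56. Leaving out pKO 2 gave 22 lower and 6 higher with a median of -0.07, so the shift was larger in pKO 2 than in pKO 1.

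Xist, the non-coding RNA that coats the inactive X and in early mouse embryos comes from the paternal X, was at 6.64 and 5.24 CPM in pKO and at 13.6, 15.0 and 12.5 CPM in controls. Both pKO values were below every control, but the log2 fold change of -1.21 (SE 0.62, unadjusted p = 0.0671, adjusted p = 1, edgeR) did not pass the test. Several Y-linked genes had higher values in pKO, none past the test. Uty, a histone demethylase family gene, was at 22.2 and 20.1 CPM in pKO and 13.6, 11.9 and 8.97 CPM in controls (log2 fold change 0.88, SE 0.48). Usp9y, a deubiquitinase gene, was at 29.1 and 19.6 CPM against 11.7, 18.6 and 8.17 CPM (log2 fold change 0.93, SE 0.54). Zfy1, a zinc finger gene, was at 11.03 and 10.3 CPM against 5.81, 4.83 and 3.49 CPM (log2 fold change 1.18, SE 0.80). Kdm5d, another histone demethylase gene, did not follow, at 2.93 and 4.36 CPM against 5.42, 5.73 and 2.64 CPM. Nor did Uba1y, at 0.0976 and 3.89 CPM against 0.513, 3.41 and 4.08 CPM. In the mKO libraries Xist was at 18.6, 17.8 and 2.67 CPM and Uty at 9.09, 24.1 and 26.6 CPM. In the KO libraries Xist was at 15.1, 16.1 and 18.5 CPM and Uty at 10.3, 7.31 and 13.1 CPM. Uty did not stand for all Y-linked genes there. Ddx3y was at 2.32, 16.8 and 28.1 CPM in KO and 2.52, 16.3 and 3.69 CPM in mKO, beside 19.5 and 14.7 CPM in pKO. Zfy2 was at 0, 39.1 and 13.2 CPM in KO and 6.79, 8.17 and 7.80 CPM in mKO, beside 10.2 and 8.86 CPM in pKO. The median over 8 Y-linked genes tested was 0.83 (0.73 over the 10 genes of the list of X-inactivation and Y-linked genes), and none of the 8 had an unadjusted p below 0.05. The labels give no sex of the embryos, and the part of male and female embryo numbers in these values was not tested. In pools, fewer embryos with a transcript and less of it per embryo cannot be told apart.

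**Figure D4:**
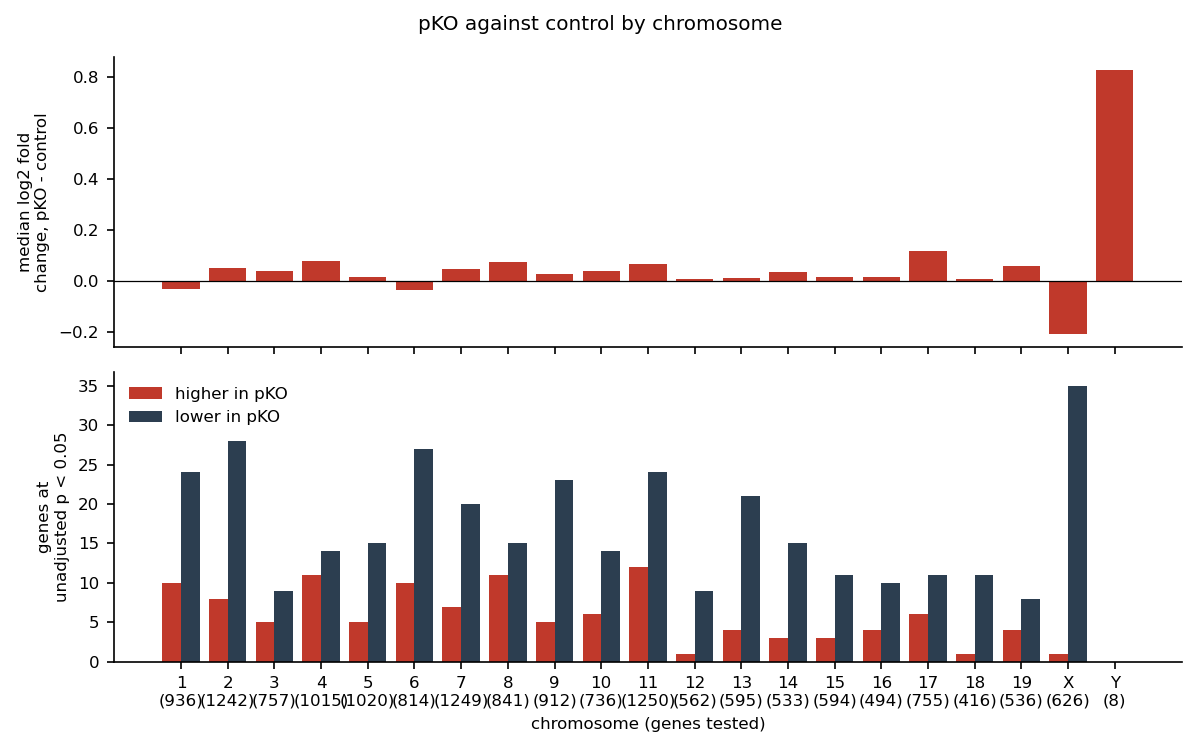
Median log2 fold change of pKO over control by chromosome (top) and the number of genes at an unadjusted p below 0.05 in each direction (bottom), with the genes tested in brackets. The X chromosome has a median of -0.20 and 35 lower genes against 1 higher; the 8 Y-linked genes have a median of 0.83.

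Gene groups that come on with embryonic transcription had medians slightly above 0 in pKO against control, and none of their members was called. Among 82 cytosolic ribosomal protein genes the median log2 fold change was 0.37, against 0.03 over all genes tested, and none had an unadjusted p below 0.05. Their summed level was 32546 CPM in pKO 1 but 20090 CPM in pKO 2, with 22024, 20473 and 21138 CPM in the controls. Only pKO 1 stood above the controls, and without it the median was -0.13. Rps29, a small-subunit protein gene with the smallest unadjusted p of the list (0.0559), was at 339 and 159 CPM against 175, 142 and 153 CPM. Nuclear-encoded oxidative phosphorylation genes (76 tested, median 0.28) had a median of -0.10 without pKO 1, and mitochondrially encoded genes (10 tested, median 0.26) one of -0.28. Ribosome biogenesis genes were higher in both pKO libraries in sum, at 15732 and 16130 CPM against 12444, 13988 and 13803 CPM. Their median was 0.26 over 57 genes, and 2 of them, Rrs1 and Rrp12, had an unadjusted p below 0.05 (0.719% of all genes were higher at that mark). Rrp12, an export factor of ribosomal subunits, was at 36.4 and 94.9 CPM against 23.4, 30.4 and 26.3 CPM. Proteasome subunits (34 tested) had a median of 0.23 and a sum of 7302 and 6393 CPM against 5801 to 5886 CPM in controls. The medians were 0.22 for 54 splicing factors, 0.18 for 40 translation factors, 0.19 for 38 cell cycle genes and 0.16 for 51 RNA polymerase II and general factors. Mcm2, a replicative helicase subunit, was the 1 cell cycle gene with an unadjusted p below 0.05, at 98.3 and 188 CPM against 66.0, 85.3 and 97.9 CPM. Scaling by total counts gave 0.25 for the ribosomal proteins and moved the median of all genes from 0.03 to -0.06.

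Of 36 genes of the 2-cell stage tested, none had an unadjusted p below 0.05, where 2.85% of all genes did, so the count is near the background; the median was 0.03 (-0.22 without pKO 1 and 0.20 without pKO 2). Their summed level was 6162 and 4726 CPM in pKO and 6188, 4314 and 5058 CPM in controls, so the groups overlapped. Zscan4d, of the Zscan4 family that marks this stage, was at 76.0 and 52.2 CPM against 125, 43.9 and 72.5 CPM, and its reads may be shared with near-identical copies. Obox6, a homeobox gene, was at 1294 and 972 CPM in pKO, 1307, 812 and 790 CPM in controls, and 334, 340 and 279 CPM in KO. The 27 embryonic transcription factors had a median of 0.13, which moved to 0.01 with total-count scaling and to -0.01 without pKO 1, and none had an unadjusted p below 0.05. Tead4, a factor of the trophectoderm programme in both that list and the trophectoderm list, was at 27.1 and 77.4 CPM in pKO, on either side of the controls (32.4, 36.5 and 44.5 CPM). It was at 4.92, 2.85 and 3.63 CPM in KO.

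Of 41 oocyte and maternal-effect genes, 2 had an unadjusted p below 0.05, both lower (median -0.07); over all genes 2.13% were lower and 0.719% higher at that mark. Mos, the kinase that holds the egg at metaphase, was at 0.683 and 0.232 CPM against 3.19, 0.945 and 5.73 CPM. Oog4, an oogenesin gene, was at 45.9 and 24.5 CPM against 81.2, 53.4 and 63.8 CPM. The medians of 21 pluripotency genes and 21 trophectoderm genes were -0.25 and -0.31, with none at an unadjusted p below 0.05. Among the 22 other Kruppel-like and SP factors tested, the median was -0.18 and Sp4 was the 1 gene with an unadjusted p below 0.05 (8.49 and 13.4 CPM against 22.3, 30.6 and 25.3 CPM). Klf2 was at 20.8 and 21.3 CPM against 14.5, 8.51 and 12.7 CPM and Klf5 at 29.9 and 46.0 CPM against 22.6, 33.6 and 18.0 CPM, neither past that mark. The medians of 22 paternally and 19 maternally expressed imprinted genes were 0.05 and -0.12. Of the paternally expressed ones, Peg10 alone had an unadjusted p below 0.05 (0.00985), with low values throughout (0 and 0.0464 CPM in pKO against 0.912, 0.315 and 1.54 CPM). Of the maternally expressed ones, Cdkn1c, a cell cycle inhibitor, had an unadjusted p of 0.0186 and the higher mean in pKO. It was at 16.7 and 66.5 CPM against 13.4, 16.6 and 24.3 CPM, pKO 1 lying inside the range of the controls. Slc22a3 and Meg3 had unadjusted p below 0.05 on the lower side. Over all genes, 0.719% were higher and 2.13% lower at that mark, and no imprinted gene was called. The remaining lists had medians of 0.08 (20 glycolysis genes, -0.26 without pKO 2), -0.06 (24 p53 targets), -0.06 (26 unfolded protein and heat shock genes) and -0.13 (53 histone and chromatin modifiers). In these, Perp, a p53 target, was the 1 gene with an unadjusted p below 0.05, at 3.42 and 5.15 CPM against 1.25, 1.26 and 1.10 CPM.

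The genes that define the step from 24-30 h to 30-36 h were set against the genotypes. The set at least 2-fold higher at 30-36 h held 2045 of 16234 genes (12.6%), of which 2011 were tested here. Their median log2 fold change in pKO against control was 0.24, against 0.03 over all genes tested, with 21 higher and 12 lower at an unadjusted p below 0.05 (over all genes, 0.719% higher and 2.13% lower). They summed to 203088 and 223143 CPM in pKO and to 162058, 191608 and 186131 CPM in controls, both pKO libraries lying above. The set at least 2-fold lower at 30-36 h held 3468 genes (21.4%), of which 3317 were tested. Their median was -0.13, with 17 higher and 95 lower at an unadjusted p below 0.05, shares near the same background of 0.719% and 2.13%. Their sums overlapped, at 139119 and 122137 CPM in pKO and 164462, 130550 and 131914 CPM in controls. In the KO libraries the later genes summed to 77442 to 82682 CPM and the earlier genes to 190676 to 245343 CPM, outside the range of all pKO and control libraries. The mKO libraries were split. In mKO 1, mKO 2 and mKO 3 the later genes summed to 80287, 181687 and 107511 CPM. The earlier genes summed to 253870, 148329 and 169426 CPM there. Across earlier steps, the sets at least 2-fold higher (15.5% of genes) and lower (14.7%) at 24-30 h than at 18-24 h had medians of 0.21 and -0.13. Those higher (22.7%) and lower (8.55%) at 12-18 h than in MII oocytes had 0.09 and 0.05, and those higher (29.4%) and lower (35.5%) at 30-36 h than at 12-18 h had 0.18 and -0.10. None of the genes of these sets was called in pKO against control.

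**Figure D5:**
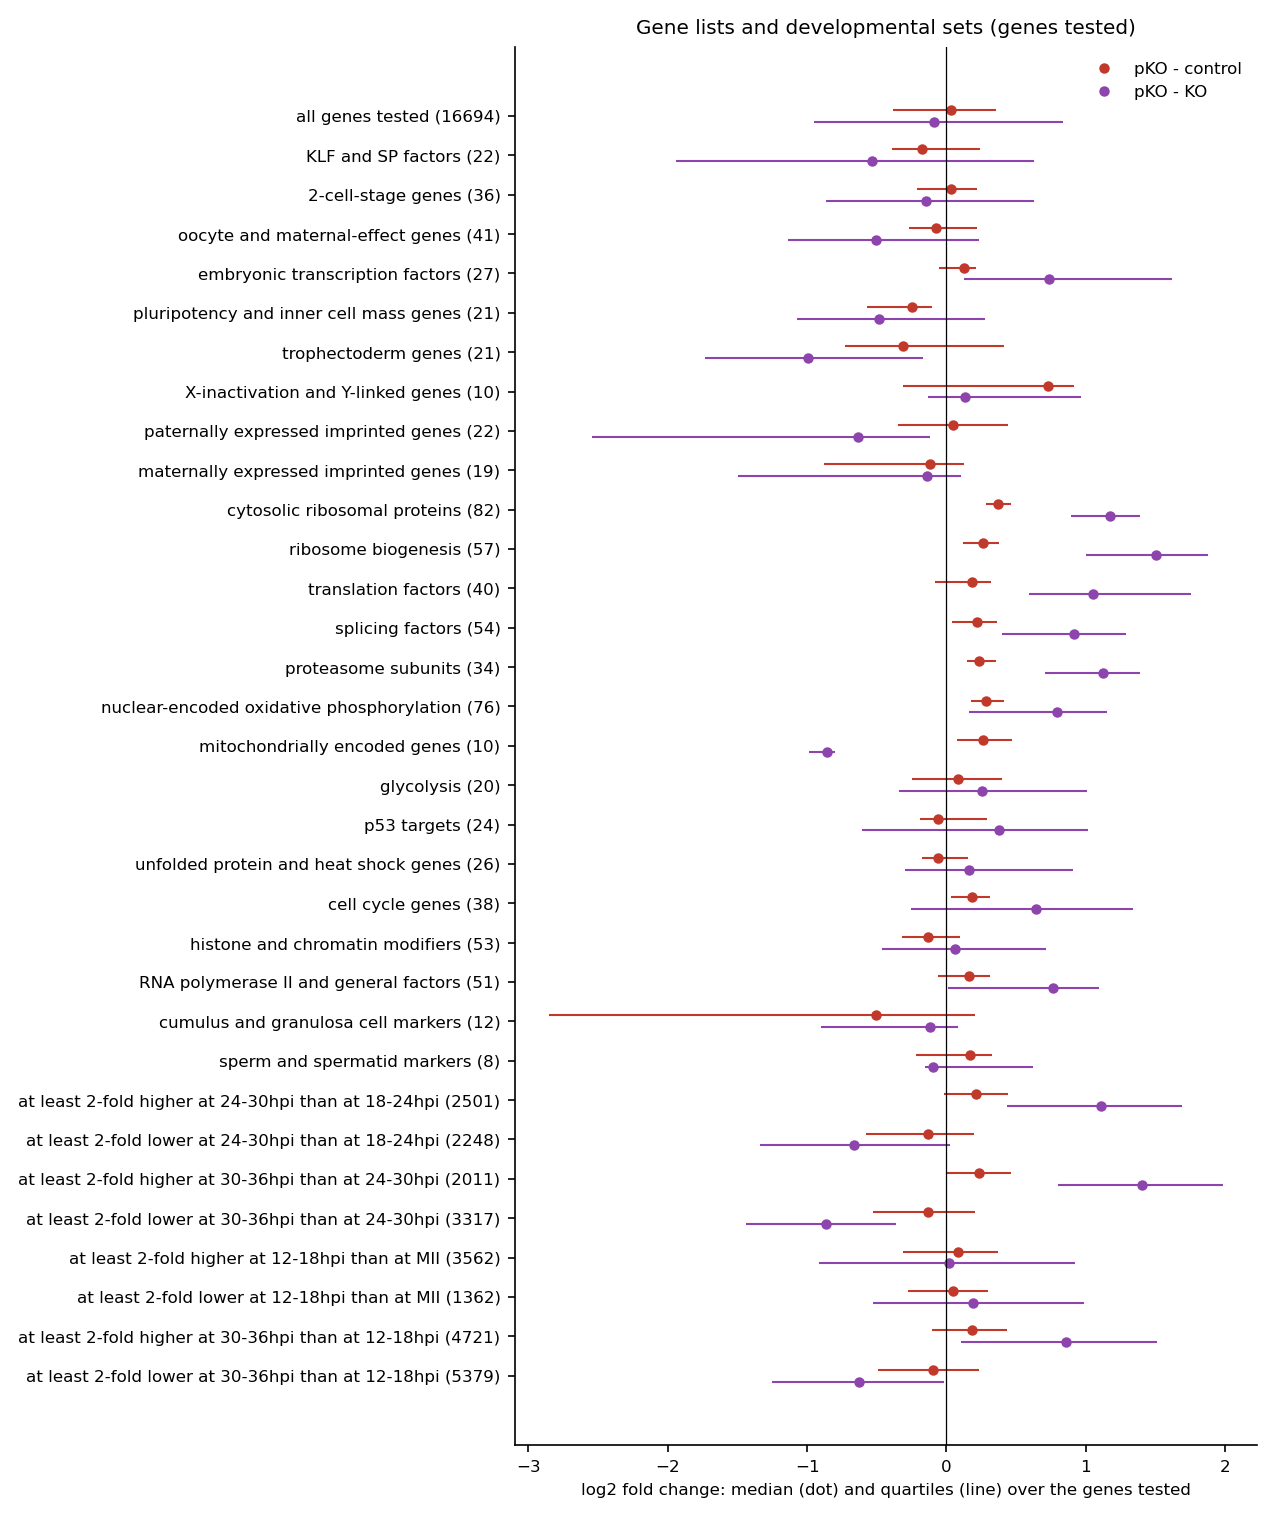
Median (dot) and quartiles (line) of the log2 fold change over the tested genes of each list and of each set defined in the window libraries, for pKO against control (red) and pKO against KO (purple). Red medians lie between -0.51 and 0.73, whereas purple ones lie between -0.997 for trophectoderm genes and 1.502 for ribosome biogenesis genes.

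Direct comparison with the KO libraries gave many calls. At an adjusted p below 0.05 (edgeR), 2087 of 16694 genes (12.5%) differed between pKO and KO, 1615 higher in pKO (9.67%) and 472 lower (2.83%). With scaling by total counts the split was 1269 higher and 633 lower. Leaving out any of the 5 libraries lowered the count, to 1106, 500 and 954 without KO 1, KO 2 and KO 3 and to 1180 and 582 without pKO 1 and pKO 2. The KO libraries were the shallowest (14080264 to 15631152 reads) and the richest in mitochondrial reads (5.92% to 11.4%). By rank correlation, KO 1, KO 2 and KO 3 were closest to the 24-30 h window (rho 0.932, 0.923 and 0.926). Their rho with the 30-36 h window, the closest for both pKO libraries, was 0.864, 0.855 and 0.874. The part of these differences in the calls was not tested. Ribosome biogenesis genes were called higher in pKO for 38 of 57 and lower for none, and cytosolic ribosomal proteins for 51 of 82 and none. Mybbp1a, a nucleolar protein in the first list, was at 183 and 311 CPM in pKO and 37.3, 21.8 and 33.3 CPM in KO (log2 fold change 3.00, SE 0.46, adjusted p = 0.00364, edgeR), with controls at 119, 172 and 166 CPM. Translation factors gave 21 of 40 higher, proteasome subunits 17 of 34, splicing factors 16 of 54, oxidative phosphorylation genes 15 of 76 and polymerase II factors 11 of 51, with none lower in any of these. Cell cycle genes gave 16 higher and 1 lower of 38, embryonic transcription factors 11 and 0 of 27, and 2-cell-stage genes 6 and 0 of 36. The opposite balance held for oocyte genes (1 higher and 6 lower of 41), trophectoderm genes (2 and 5 of 21) and other KLF and SP factors (1 and 4 of 22). Of the genes at least 2-fold higher at 30-36 h than at 24-30 h, 906 of 2011 were called higher in pKO than in KO and 3 lower. Of the genes at least 2-fold lower, 3 were called higher and 254 of 3317 lower.

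The 3 highest and 3 lowest genes by the naming rule are given with their control levels. Impdh1, an enzyme of guanine nucleotide synthesis, was at 51.2 and 158 CPM in pKO, 3.82, 6.29 and 4.91 CPM in KO and 30.0, 60.0 and 47.4 CPM in controls (pKO over KO, log2 fold change 4.39, SE 0.70, adjusted p = 0.00364, edgeR). Cpn1, the catalytic subunit of carboxypeptidase N, was at 25.6 and 43.4 CPM in pKO, 2.87, 0.439 and 1.51 CPM in KO and 16.5, 24.5 and 30.1 CPM in controls (log2 fold change 4.41, SE 0.73). Apol7e, of the apolipoprotein L family, was at 28.0 and 21.4 CPM in pKO and 13.5, 25.6 and 16.8 CPM in controls; KO held 0.410, 0 and 0.666 CPM (log2 fold change 6.04, SE 1.01). Apol7e has close relatives that may share its reads. Atf3, a stress-response transcription factor, was at 0.927 and 2.92 CPM in pKO, 18.6, 35.5 and 38.5 CPM in KO and 0.798, 2.42 and 1.195 CPM in controls (log2 fold change -4.00, SE 0.86, adjusted p = 0.00904, edgeR). Without pKO 1 its adjusted p was 0.0618. Gabrq, a GABA receptor subunit gene on the X chromosome, was at 4.83 and 2.78 CPM in pKO, 26.7, 76.3 and 33.4 CPM in KO and 12.4, 6.83 and 8.22 CPM in controls. Rnase4, a secreted ribonuclease gene, was at 3.90 and 2.97 CPM in pKO, 16.3, 59.1 and 37.6 CPM in KO and 4.45, 10.9 and 5.53 CPM in controls. Rnase4 shares its locus with Ang, and their reads may not be separable. For Gabrq and Rnase4 both pKO values were below every control as well, which was not called.

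The promoters of 4 of these genes are shown beside that of Klf17, 250 bases upstream of the RefSeq start in GRCm38.p6, because these genes, named by rule, were called between pKO and KO with the 3 highest and the lowest log2 fold changes among genes that met the rule. For Impdh1 the first of its starts in the table is used. They lie at chr6:29216365-29216614 (minus strand), chr19:43986521-43986770 (minus), chr15:77698639-77698888 (plus) and chr1:191183334-191183583 (minus). The Apol7e stretch lies inside the annotated gene (chr15:77695706-77719288), and the Cpn1 stretch overlaps the edge of its gene (chr19:43956307-43986551). Capitals mark matches to CCNCNCCC on either strand.
Impdh1: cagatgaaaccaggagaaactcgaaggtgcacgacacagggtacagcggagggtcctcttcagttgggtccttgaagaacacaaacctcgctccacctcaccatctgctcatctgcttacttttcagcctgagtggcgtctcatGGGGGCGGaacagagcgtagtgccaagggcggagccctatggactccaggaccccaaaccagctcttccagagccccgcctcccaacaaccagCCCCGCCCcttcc
Cpn1: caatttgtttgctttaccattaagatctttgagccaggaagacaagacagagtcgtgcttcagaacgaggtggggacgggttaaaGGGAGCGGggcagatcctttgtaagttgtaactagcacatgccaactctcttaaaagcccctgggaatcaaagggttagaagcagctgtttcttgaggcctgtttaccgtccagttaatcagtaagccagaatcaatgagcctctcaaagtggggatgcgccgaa
Apol7e: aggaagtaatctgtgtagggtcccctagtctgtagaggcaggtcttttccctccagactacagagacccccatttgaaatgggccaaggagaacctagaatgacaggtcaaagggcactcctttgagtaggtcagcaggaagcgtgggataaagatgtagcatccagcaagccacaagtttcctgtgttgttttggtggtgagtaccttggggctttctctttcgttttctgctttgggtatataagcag
Atf3: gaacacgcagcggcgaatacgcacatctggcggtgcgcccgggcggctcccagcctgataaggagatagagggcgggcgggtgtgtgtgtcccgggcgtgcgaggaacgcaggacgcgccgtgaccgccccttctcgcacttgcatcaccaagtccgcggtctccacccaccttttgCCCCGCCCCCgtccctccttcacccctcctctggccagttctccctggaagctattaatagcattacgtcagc
Counted over the full 300 bases around the start (250 before and 50 after), the motif was present for 65.5% of genes called higher in pKO than in KO, 76.5% of genes called lower and 69.4% of all genes tested that have a promoter in the table. Among genes at an unadjusted p below 0.05 in pKO against control it was present for 66.3% of the higher and 71.9% of the lower genes. In these shares a gene counted if any of its promoters held a match. Counted per single promoter, which is not the same measure, the motif was present in 49.5% of all 32851 promoters of the table. Matches on the 2 strands and matches that overlap were not told apart in these shares.

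Against the mKO libraries, pKO gave no call and the mKO replicates were far apart. By edgeR, 0 of 16694 genes (0%) had an adjusted p below 0.05, 1919 (11.5%) had an unadjusted p below 0.05 (6.51% higher in pKO and 4.98% lower), and DESeq2 called 130. Between mKO 2 and the controls, 3.73% to 7.67% of the genes compared were at least 2-fold apart, against 36.2% between mKO 1 and mKO 2. Without mKO 2, 483 genes were called. Gja1, the gap junction protein connexin 43, was at 118 and 79.9 CPM in pKO and 17.7, 37.0 and 12.6 CPM in mKO, with controls at 78.8, 76.6 and 57.5 CPM (log2 fold change 2.14, SE 0.41, adjusted p = 0.321, edgeR). Ctsc, the lysosomal protease cathepsin C, was at 955 and 834 CPM in pKO and 184, 399 and 179 CPM in mKO, and Kyat3, an aminotransferase gene, at 78.6 and 51.7 CPM and 13.97, 15.1 and 11.5 CPM. On the lower side, Taf7l, a germ-cell relative of a TFIID subunit, was at 13.5 and 16.0 CPM in pKO and 80.7, 88.6 and 42.7 CPM in mKO. Cdo1, which oxidises cysteine, was at 76.8 and 44.6 CPM in pKO and 181, 215 and 173 CPM in mKO. Samd10 was at 10.5 and 14.1 CPM in pKO and 51.0, 32.6 and 35.3 CPM in mKO. For all 6 genes the groups did not overlap, a condition of the choice, and each was called by DESeq2, without the low-count filter and without mKO 2.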

How the data were processed

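Poly(A) RNA of 11 genotype libraries (3 control, 2 pKO, 3 KO, 3 mKO) and 30 libraries of 10 stages was analysed. The deposited tables hold read counts per gene, whole numbers per the file headers and values. One deposited stage column carries a fraction in its damaged last record (Nyx), so that column is listed under expected counts and was rounded, and that record was left out. The submitters' processing notes name Trim Galore 0.6.10, STAR 2.7.10a, SAMtools 1.12 and the build mm10; the counting tool and strand are not given in the sources used here. Antisense and overlapping genes may therefore share reads.

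Groups were taken from the labels. R 4.3.3 and edgeR 4.0.16 ran a two-sided robust quasi-likelihood F-test after TMM scaling. Low genes were removed by filterByExpr (count 10, total 15). A model held the 11 genotype libraries and a second the 30 window libraries. Calls used a Benjamini-Hochberg adjusted p below 0.05. The SE is the fold change divided by the square root of F, and intervals use the fit's degrees of freedom. Total counts ran from 14080264 to 23018252 per genotype library. Every pair of replicates differed by more than counting noise (chi-square over its degrees of freedom at least 20.5).

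The comparison, the gene lists and the rules were chosen with earlier results of these data known. The naming rule took Klf17, then called genes whose higher group averaged 20 CPM or more, with no overlap between groups and with an ordinary symbol. The 14 highest and 14 lowest by fold change were to be named, and, where none passed, the 6 of smallest unadjusted p in each direction as values. That fallback was read as keeping the conditions on level, overlap and symbol. For pKO against KO and mKO, 3 in each direction were named, with the same fallback for mKO. For each list up to 4 members of smallest p were allowed. The choice of the list members Zscan4d, Klf2, Klf5, Obox6, Tead4 and Mybbp1a, the genes at 0 reads, the chromosome counts and the motif shares were made after results were seen. Promoters and positions are from RefSeq GRCm38.p6, with promoters for 12346 of 16694 genes tested and chromosomes for 15891.

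Alternatives were DESeq2 1.42.0, other scalings, no filter, a replicate block, only the pKO and control libraries, a fold minimum, thinning to the smallest total, no mitochondrial genes and each library left out. The edgeR fit of pKO against control was also run on simulated counts with known changes, and the other steps were not. Python 3.11.15, pandas 2.3.3, numpy 2.4.6 and matplotlib 3.10.9 made summaries and figures.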

Additional observations from a re-analysis of the deposited data

How the results depend on the processing

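Between pKO and control, 0 genes were called by edgeR under every alternative run except no low-count filter (4 genes); DESeq2 called 2. At an unadjusted p below 0.05 the count lay between 370 and 843 (807 without pKO 1, 650 without pKO 2). Between pKO and KO, DESeq2 called 3521 genes and leaving out a library gave 500 to 1180. Between pKO and mKO, DESeq2 called 130, no low-count filter 136, and leaving out a library 0 to 483. With 1 library left in pKO, it is assumed to vary like the other groups. The labels do not say that a replicate number marks a shared source. The deviations of same-numbered libraries correlated at 0.0999 and 0.0912 for pKO and control, 0.166 and 0.122 for pKO and mKO, and 0.0563 and -0.0332 for pKO and KO, with only 2 pairs each, so the numbers were not taken as pairs. With a replicate block, 0 genes were called against control (512 unadjusted), 2695 against KO and 0 against mKO. Scaling by total counts moved the median of all genes from 0.03 to -0.06 against control and from -0.09 to -0.20 against KO and from -0.02 to -0.16 against mKO; DESeq2 size factors gave -0.18 against KO. The medians of the X-linked genes kept their sign under each alternative run, from -0.56 (without pKO 1) to -0.07 (without pKO 2), and Xist stayed lower and Uty higher; these were examined after the data were seen. With 2 pKO libraries, only differences well above the interval half-widths could be called, and genes below 1 CPM carry little information.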
